A study of Rattus norvegicus with 18 samples.

Results

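The liver of adult rats makes a large part of its drug- and steroid-metabolising capacity from the Cyp2c and Cyp3a cytochromes, and 9 of these genes were followed in 6 control, 6 NASH and 6 NASH-CH rats: Cyp2c7, Cyp2c11, Cyp2c13, Cyp2c22, Cyp2c23, Cyp2c24, Cyp3a2, Cyp3a9 and Cyp3a18. They were taken by gene symbol from the 32623 genes listed for each liver. The 9 symbols covered 10 rows, because Cyp3a9 stands under 2 Ensembl identifiers. Another 4 symbols of the same subfamilies, Cyp2c6v1, Cyp2c12, Cyp3a23/3a1 and Cyp3a85-ps, were read beside them. The animals were male Wistar rats with 1 library of whole liver tissue each, sequenced after a stranded polyadenylated RNA preparation. Control rats received standard chow and plain water for 12 weeks. Per the study's methods, NASH rats inhaled carbon tetrachloride (CCl4) with phenobarbital in the drinking water for 6 weeks and then ate a high-fat, high-cholesterol diet for 4 weeks. NASH-CH rats, the model of NASH with cirrhosis, had 8 weeks of CCl4 and phenobarbital and then 16 weeks of the diet together with CCl4 and phenobarbital. The series' own description gives only 10 and 24 weeks of CCl4 with the diet. Diet, CCl4, phenobarbital, duration and age changed together, so their contributions cannot be told apart.

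Cytochromes of these subfamilies are haem enzymes of the endoplasmic reticulum that take electrons from cytochrome P450 reductase (Por) and oxidise drugs, steroids, retinoids and fatty acids. In rat liver several Cyp2c and Cyp3a forms are sex-specific. The pulsatile growth hormone of males, acting through Stat5b, keeps Cyp2c11 and Cyp2c13 on and the female form Cyp2c12 off, while foreign compounds induce Cyp3a and Cyp2c6 forms through the pregnane X receptor (Nr1i2) and the constitutive androstane receptor (Nr1i3). Phenobarbital, which both diseased groups received, is a classical inducer of this second kind. Per the study's methods, NASH rats had it in the first 6 weeks and not in the last 4, and NASH-CH rats had it throughout.

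The genes lie in clusters of close copies, and their promoters show how near some copies are. All 9 members had an entry among the RefSeq promoters of the rat assembly GRCr8, which is not the build of the counts (Rnor_6.0). The 250 bases before the annotated start are printed 5′ to 3′ on the gene's strand. They are given for the neighbours Cyp3a2 and Cyp3a23/3a1, which were called higher, and for Cyp3a18, which was not called. They are also given for the neighbours Cyp2c11 and Cyp2c24, which stood at opposite ends of their range in the same liver. These windows were picked with the levels known. Capitals mark AGTTCA or AGGTCA, hexamers that nuclear receptors can bind, and CAAAGTCCA, a form of the HNF4 element, on either strand, and TGAACT is AGTTCA read on the opposite strand.
Cyp3a2, chr12:14343858-14344107, minus strand: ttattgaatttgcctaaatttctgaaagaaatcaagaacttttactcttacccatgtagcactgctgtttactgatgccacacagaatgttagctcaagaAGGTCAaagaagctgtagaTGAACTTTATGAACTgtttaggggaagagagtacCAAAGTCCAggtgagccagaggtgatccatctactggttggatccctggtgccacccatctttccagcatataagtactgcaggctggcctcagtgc
Cyp3a23/3a1, chr12:14398804-14399053, minus strand: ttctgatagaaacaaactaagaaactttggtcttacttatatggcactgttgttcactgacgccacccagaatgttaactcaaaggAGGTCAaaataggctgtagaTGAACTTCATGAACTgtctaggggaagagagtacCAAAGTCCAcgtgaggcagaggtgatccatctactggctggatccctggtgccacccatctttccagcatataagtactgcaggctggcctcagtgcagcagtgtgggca
Cyp3a18, chr12:13994062-13994311, plus strand: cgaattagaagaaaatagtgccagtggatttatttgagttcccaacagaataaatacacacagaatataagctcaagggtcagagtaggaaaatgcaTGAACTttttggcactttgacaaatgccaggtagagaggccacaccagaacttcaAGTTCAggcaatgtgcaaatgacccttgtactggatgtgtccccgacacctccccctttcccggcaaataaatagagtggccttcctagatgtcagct
Cyp2c11, chr1:246174966-246175215, plus strand: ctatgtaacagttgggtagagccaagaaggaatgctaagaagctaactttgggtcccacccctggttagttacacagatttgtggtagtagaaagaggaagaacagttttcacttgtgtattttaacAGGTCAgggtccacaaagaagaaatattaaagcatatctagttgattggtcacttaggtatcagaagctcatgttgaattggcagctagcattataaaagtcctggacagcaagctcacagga
Cyp2c24, chr1:246286091-246286340, plus strand: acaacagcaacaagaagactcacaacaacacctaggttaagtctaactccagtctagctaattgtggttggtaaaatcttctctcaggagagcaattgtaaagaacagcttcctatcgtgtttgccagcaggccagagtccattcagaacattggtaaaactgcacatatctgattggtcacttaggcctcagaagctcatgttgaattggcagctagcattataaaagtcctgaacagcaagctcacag

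Cyp3a2 and Cyp3a23/3a1 shared 210 of 250 bases (84.0%), and both carried TGAACT again after a gap of 3 bases. The direct repeat TGAACTNNNTGAACT, in which the capitals in the sequences above include the 3 bases of the gap, was found on either strand in 2 of 33469 RefSeq promoters (0.00598%), and those 2 were Cyp3a2 and Cyp3a23/3a1. Such a repeat is of the kind the pregnane X receptor is known to bind, but only this exact form and spacing was searched. The 2 windows are near copies of each other, so they are not separate finds. Any part of the repeat in the higher levels was not tested. CAAAGTCCA stood in both windows and in 0.338% of all promoters, AGGTCA in 14.1% and AGTTCA in 12.2%. Cyp3a18 held AGTTCA at 2 places, once on each strand and not as the repeat. The Cyp3a9 window, not printed, held AGTTCA once and neither the repeat nor CAAAGTCCA. Cyp3a9 has a row called higher, ENSRNOG00000001379, and a row that was not, and which of them this window belongs to was not settled. Cyp2c11 and Cyp2c24, which are next to each other in RefSeq's order, shared 173 of 250 bases (69.2%). AGGTCA was present in the Cyp2c11 window, and none of the 3 marked motifs was found in that of Cyp2c24. The motifs TTCNNNGAA (STAT5, in 7.67% of all promoters) and TTGCGCAA (C/EBP, in 0.14%) were in no member's window. A match describes the letters of these windows and was not tested as a binding site.

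Levels are given in CPM, counts brought to a common library size by the TMM method so that libraries of different depth can be compared. They are not divided by gene length, so they compare rats for a gene and not genes with each other. Libraries held 19498534 to 27174015 expected counts in controls, 20827770 to 29491947 in NASH and 44680344 to 60117822 in NASH-CH, and this difference in depth cannot be told apart from the NASH-CH condition. Albumin, the defining hepatocyte transcript, ranged from 41370 to 131500 CPM and so was abundant in every library. Summed hepatocyte markers (12 genes) were 141700 to 201400 CPM in controls, 104900 to 167900 in NASH and 98360 to 157900 in NASH-CH. The group means of this sum were 167500, 135100 and 134300 CPM. Those of albumin alone were 105900, 74890 and 71040 CPM, so albumin carried nearly all of the fall. Less albumin transcript in bulk liver may mean fewer hepatocytes or less of it in each, which cannot be told apart. The NASH-CH 5 liver stood apart: it was far from the other rats of its group in 7.05% of the genes tested, against 3.57% for NASH-CH 6 and 0.372% to 1.76% for the other rats.

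Of the 10 member rows, 9 were expressed highly enough to be tested, all but Cyp2c7. In NASH against control 2 of 9 passed an adjusted p of 0.05 (limma-voom, Benjamini-Hochberg), where 3.12% of the 12904 genes tested did so. They were Cyp3a2 and 1 row of Cyp3a9, both higher in NASH (1.58% of all genes were called higher and 1.54% lower). In NASH-CH against control the same 2 rows were called, both higher, against 17.0% of all genes called, 8.38% higher and 8.6% lower. No member fell past the limma-voom threshold in either comparison with control. At an unadjusted p under 0.05, 0 of 9 were lower in NASH (11.0% of all genes) and 1 in NASH-CH (15.6%), the other Cyp3a9 row, which DESeq2 called and edgeR did not. In NASH-CH against NASH limma-voom called 0 of 9 (4.18% of all genes). At an unadjusted p under 0.05 that last comparison held 2 rows, Cyp2c24 and the other Cyp3a9 row (17.5% of all genes), and edgeR called 1 and DESeq2 called 2. Cyp2c24 had 57 counts in all NASH livers and 4572 in all NASH-CH livers. Its NASH-CH levels alone were enough to bring it into the test, so its calls in that comparison are a description. The median log2 fold change over the 9 tested rows was 0.08 in NASH and 0.08 in NASH-CH against control, beside 0.01 and 0.01 over all tested genes. The comparisons share their control rats.

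**Figure D1:**
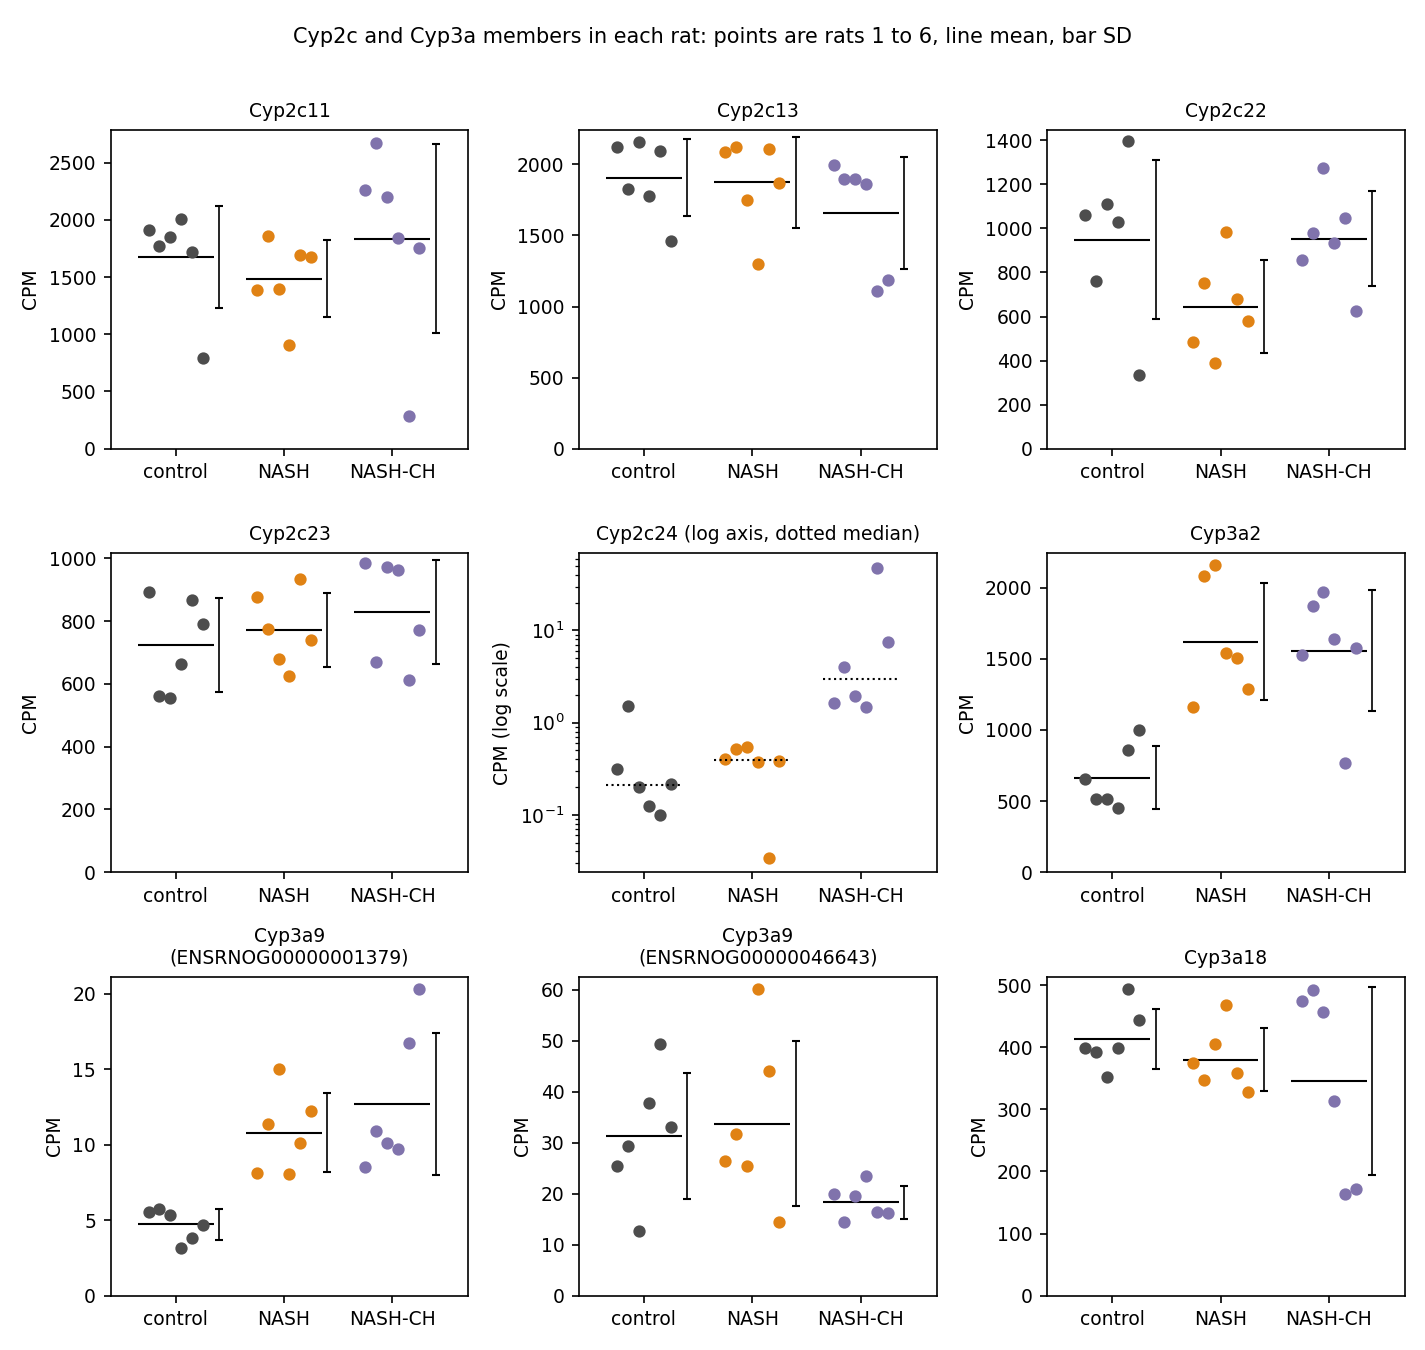
Level of each tested member row in CPM (vertical axis) in the control, NASH and NASH-CH rats, 1 point per rat, with the mean as a line and the SD as a bar, except for Cyp2c24, which is on a log axis with the median dotted. Cyp3a2 lay at 451 to 1000 CPM in controls and at 1158 to 2157 in NASH, and Cyp2c24 reached 48.3 CPM in a single NASH-CH liver.

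Cyp3a2, a steroid and drug hydroxylase that predominates in males (ENSRNOG00000000978), was higher in both diseased groups. In the control rats it stood at 653, 517, 512, 451, 857 and 1000 CPM. In the NASH rats it stood at 1158, 2079, 2157, 1538, 1503 and 1287 CPM, each above every control. In the NASH-CH rats it stood at 1524, 1870, 1966, 1638, 764 and 1573 CPM, and 5 of 6 were above every control, the exception being NASH-CH 5. The mean went from 665 ± 219 CPM (SD, n = 6) in controls to 1620 ± 411 in NASH and 1556 ± 425 in NASH-CH. On the log2 scale the rise was 1.31 in NASH (SE 0.23, 95% interval 0.83 to 1.80, adjusted p = 0.00759) and 1.24 in NASH-CH (SE 0.24, 0.74 to 1.74, adjusted p = 0.00185). Both calls held in each of the 18 fits that left out 1 rat. NASH-CH and NASH differed by -0.07 (95% interval -0.59 to 0.45, adjusted p = 0.925), so a difference between the diseased groups smaller than these bounds could not be seen. Non-overlap upward was found for 1.77% of all genes in NASH and 3.64% in NASH-CH.

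Cyp3a23/3a1, next to Cyp3a2 in RefSeq's order, and Cyp3a85-ps, which that order does not list, were higher too. Cyp3a23/3a1, the form best known for induction by glucocorticoids and pregnane compounds, was at 694 to 1536 CPM in controls, 1654 to 3247 in NASH and 2183 to 2678 in NASH-CH, with no diseased rat inside the control range. Its log2 fold changes were 1.15 (SE 0.19, adjusted p = 0.0053) and 1.29 (SE 0.19, adjusted p = 0.000185). Cyp3a85-ps, named as a pseudogene, rose by 1.34 (adjusted p = 0.00563) and 1.42 (adjusted p = 0.000509). Over the 18 rats the deviations of Cyp3a2 from its group means were most like those of Cyp3a85-ps among all tested genes (r = 0.994, and 0.992 without NASH-CH 5). The ratio of Cyp3a85-ps to Cyp3a2 reads varied little within a group, 0.159 to 0.177 in controls, 0.164 to 0.175 in NASH and 0.18 to 0.198 in NASH-CH. Every NASH-CH rat was above every control and NASH rat. Expected counts of Cyp3a2 and Cyp3a85-ps were not whole numbers in 18 of 18 rats, and those of Cyp3a23/3a1 and Cyp3a18 in 17, as happens when RSEM shares out reads that match several genes. The separate values of these copies are therefore uncertain. NASH-CH 5 had 2.99 Cyp3a23/3a1 reads for each Cyp3a2 read, while the other 17 rats had 1.28 to 1.73.

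Cyp3a9, a form more abundant in females, gave different answers under its 2 identifiers. The row ENSRNOG00000001379 was low but regular, with 5.55, 5.75, 5.35, 3.18, 3.82 and 4.70 CPM in controls, 8.16, 11.4, 15.0, 8.05, 10.1 and 12.2 in NASH, and 8.51, 10.9, 10.1, 9.72, 16.8 and 20.3 in NASH-CH. No rat of either diseased group overlapped the controls. Its mean rose from 4.72 ± 1.03 CPM to 10.8 ± 2.647 and 12.7 ± 4.70 (SD, n = 6), or on the log2 scale by 1.20 in NASH (SE 0.25, adjusted p = 0.0161) and 1.39 in NASH-CH (SE 0.24, adjusted p = 0.000759). Both calls held in each of the 18 fits without 1 rat.

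The row ENSRNOG00000046643 carried more of the Cyp3a9 reads in all rats but NASH-CH 5 and 6 and was not called by limma-voom. It stood at 25.4, 29.4, 12.7, 37.9, 49.4 and 33.1 CPM in controls, at 26.5, 31.8, 25.4, 60.3, 44.0 and 14.4 in NASH, and at 20.0, 14.5, 19.5, 23.4, 16.4 and 16.2 in NASH-CH. The 6 NASH-CH rats lay close together at the lower end of both other groups, within their ranges. The log2 difference of NASH-CH from control was -0.68 (SE 0.31, adjusted p = 0.139) and from NASH -0.76 (SE 0.31, adjusted p = 0.194), neither past the threshold. The difference from control was past it without control 3, the lowest control (-0.92, adjusted p = 0.0353). DESeq2 called both differences (adjusted p = 0.0424 and 0.0435). Within groups the 2 rows went opposite ways (r = -0.503 over 18 rats).

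Cyp3a18, another male-predominant testosterone hydroxylase, did not pass the test. It was at 352 to 492.9 CPM in controls (median 399) and 328 to 469 in NASH (median 366). In NASH-CH the rats spread out, at 475, 492, 457, 313, 164 and 172 CPM, with the first 3 inside the control range, the other 3 below every control, and NASH-CH 5 and 6 lowest. The log2 differences from control were -0.12 in NASH (95% interval -0.60 to 0.36, adjusted p = 0.809) and -0.38 in NASH-CH (-0.87 to 0.12, adjusted p = 0.286). For each Cyp3a2 read there were 0.660 ± 0.153 Cyp3a18 reads in controls, 0.246 ± 0.0619 in NASH and 0.220 ± 0.0686 in NASH-CH.

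Summed over the 6 Cyp3a rows, which reads shared among Cyp3a copies cannot change, the subfamily was at 2240 ± 606 CPM in controls, 4552 ± 1092 in NASH and 4625 ± 744 in NASH-CH (SD, n = 6). Against control, the log2 ratio of means was 1.02 in NASH and 1.05 in NASH-CH, and every diseased rat (3509 to 6070 in NASH, 3382 to 5510 in NASH-CH) was above the highest control (3180). This rise did not depend on how reads were divided among these 6 rows.

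**Figure D2:**
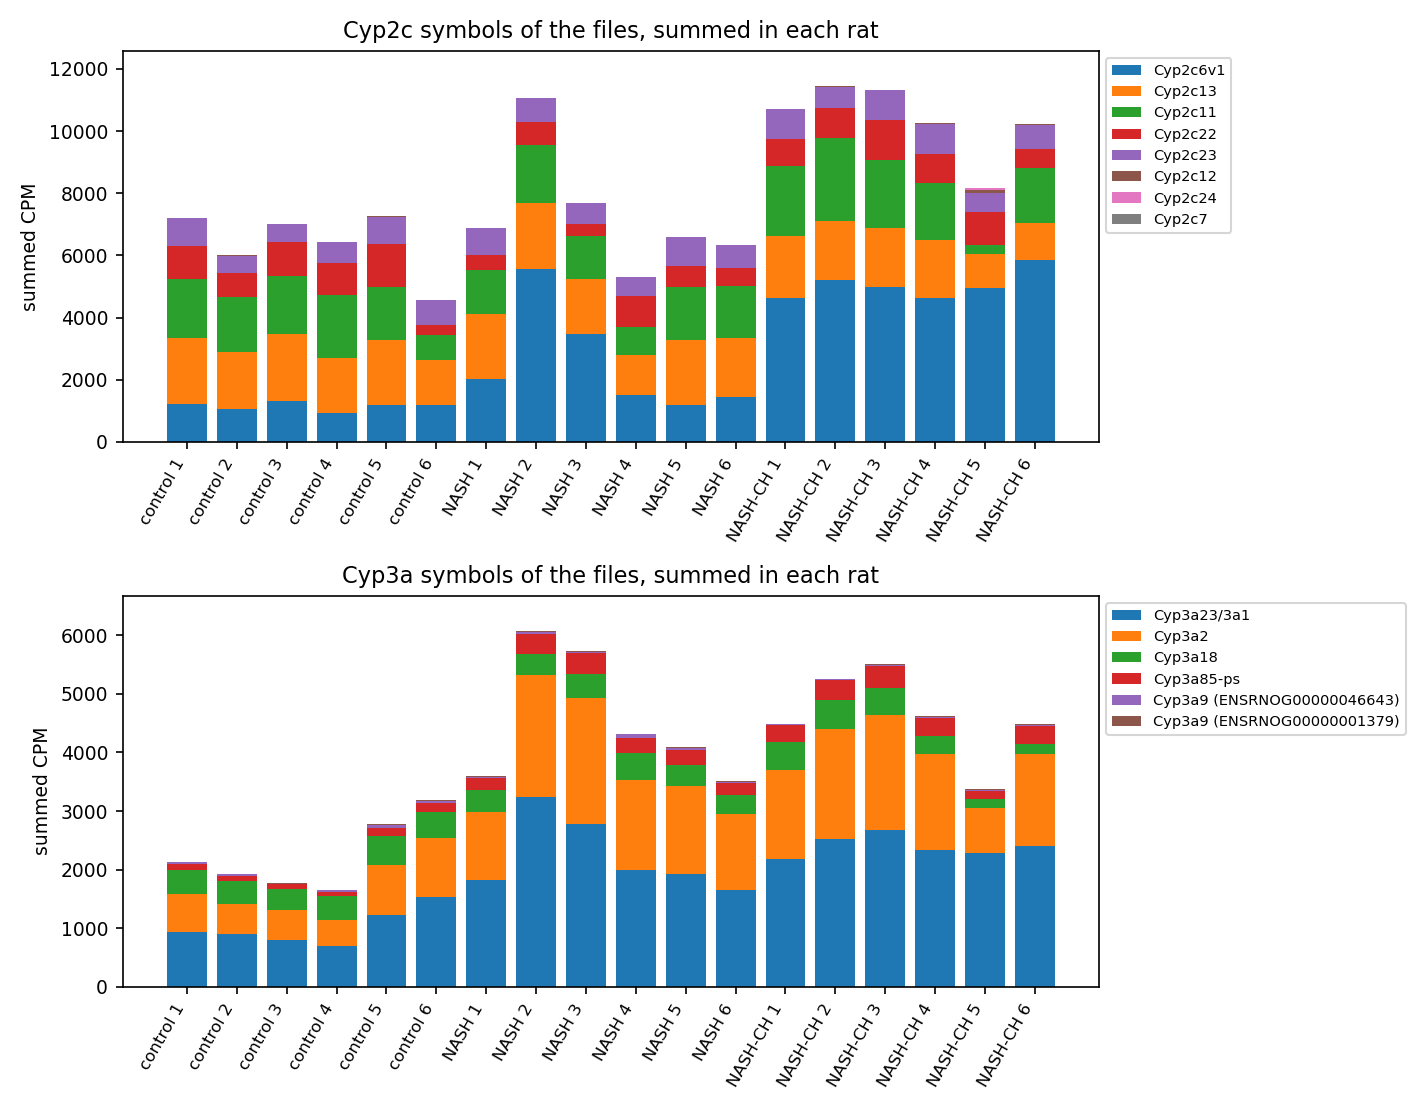
Summed CPM of the Cyp2c symbols (upper panel) and the Cyp3a symbols (lower panel) in each of the 18 rats, stacked by gene, with reads not divided by gene length. Cyp3a sums were 1661 to 3180 CPM in controls and 3382 to 6070 in the diseased rats, and the taller Cyp2c bars of NASH-CH are made up by Cyp2c6v1.

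Cyp2c11, the main male-specific P450 of rat liver and a steroid hydroxylase (ENSRNOG00000052810), did not differ between the groups beyond the spread of the rats. It stood at 1908, 1776, 1853, 2011, 1716 and 797 CPM in controls, at 1390, 1862, 1394, 905, 1692 and 1672 in NASH, and at 2264, 2672, 2198, 1841, 288 and 1756 in NASH-CH. Control 6 and NASH-CH 5 were far below the rest of their groups, and 3 NASH-CH rats were above every control. The log2 difference from control was -0.16 in NASH (SE 0.39, 95% interval -0.97 to 0.65, adjusted p = 0.851) and -0.06 in NASH-CH (SE 0.40, -0.90 to 0.77, adjusted p = 0.929). Without NASH-CH 5 the NASH-CH value was 0.39, and over the 18 fits without 1 rat it ran from -0.26 to 0.39. Its direction also turned under edgeR (0.13), DESeq2 (0.12) and library size scaling (0.18), so no direction is given for it. Expected counts of Cyp2c11 were whole in every rat, as when no read is shared with another row.

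Cyp2c13, a male-specific steroid hydroxylase next to Cyp2c12, was at 1459 to 2156 CPM in controls (median 1963), 1299 to 2124 in NASH (median 1978) and 1112 to 1995 in NASH-CH (median 1878). In NASH-CH it fell into 4 rats at 1862 to 1995 CPM and NASH-CH 5 and 6 at 1112 and 1190. The log2 differences from control were -0.04 (95% interval -0.39 to 0.31, adjusted p = 0.922) and -0.23 (-0.59 to 0.13, adjusted p = 0.384), and both turned positive under library size scaling (0.19 and 0.03). Within groups the correlation of Cyp2c13 with Cyp2c11 was r = 0.757 over 18 rats and 0.742 without NASH-CH 5. Expected counts of Cyp2c13, and likewise of Cyp2c12, were not whole in 11 of 18 rats, as when reads are shared with another row. In NASH-CH 5 they were 85627.91 and 8204.09.

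Cyp2c12, the female-specific counterpart, was low in these males, at 4.54 to 17.98 CPM in controls and 3.13 to 8.15 in NASH. In NASH-CH it was at 8.69, 8.68, 2.32, 14.4, 106.5 and 9.72 CPM, so that the highest Cyp2c12 and the lowest Cyp2c11 of all 18 rats were in the same liver, NASH-CH 5. That liver had 0.370 Cyp2c12 reads for each Cyp2c11 read, where the median of its group was 0.00469. Cyp2c12 passed the limma-voom test in no comparison. For NASH-CH against control the log2 difference was 0.70 (SE 0.66, adjusted p = 0.492), and 0.04 without NASH-CH 5. For NASH-CH against NASH it was 1.22 (adjusted p = 0.370), and 0.56 without NASH-CH 5, while DESeq2 gave 2.28 and called it (adjusted p = 0.0173). The correlation of its deviations with those of Cyp2c11, -0.666 over 18 rats, rested on that liver and was 0.042 without it.

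**Figure D3:**
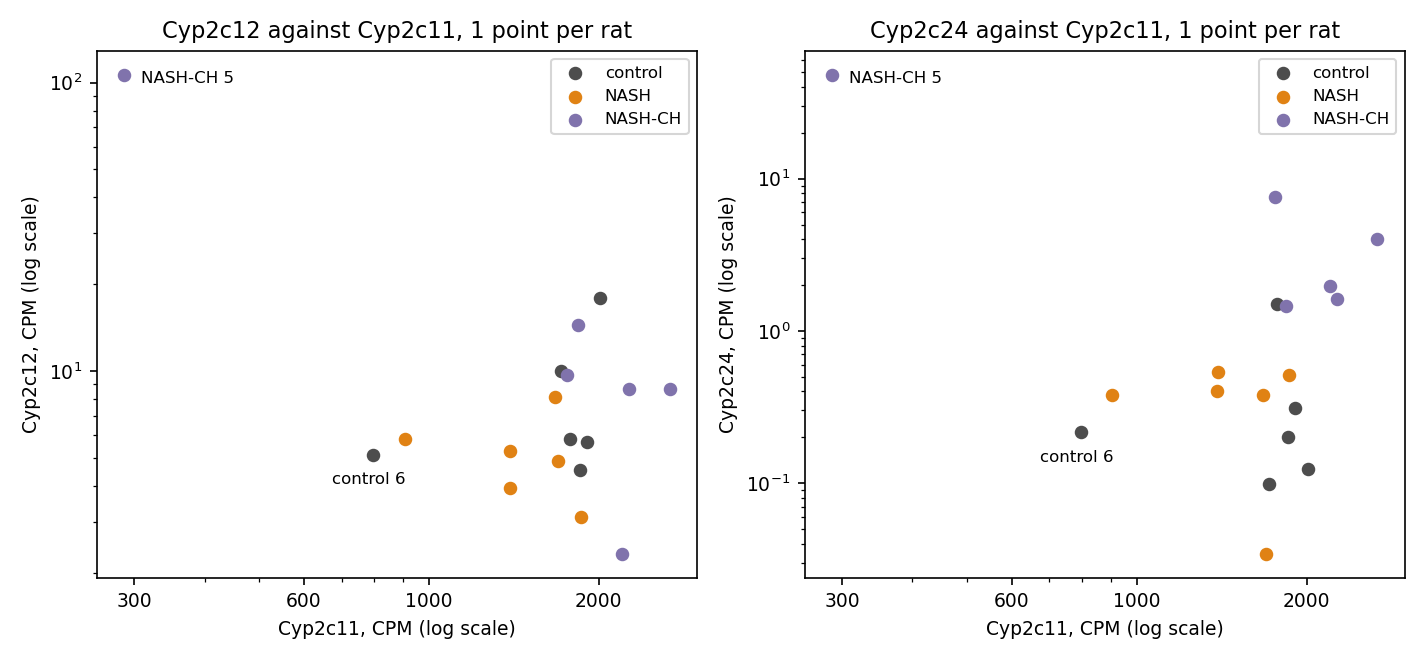
Cyp2c12 (left) and Cyp2c24 (right) against Cyp2c11 in CPM, all on log axes, with 1 point per rat coloured by group. NASH-CH 5 sits alone at 288 CPM of Cyp2c11 with 106.5 of Cyp2c12 and 48.3 of Cyp2c24, and control 6, at 797 CPM of Cyp2c11, has neither raised.

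Cyp2c24, the neighbour of Cyp2c11, was near the limit of detection in controls and NASH and measurable in every NASH-CH liver. Controls stood at 0.312, 1.504, 0.202, 0.124, 0.0992 and 0.215 CPM, NASH rats at 0.401, 0.514, 0.540, 0.377, 0.0342 and 0.379, and NASH-CH rats at 1.62, 4.01, 1.96, 1.46, 48.3 and 7.55. All 6 NASH-CH rats were above every NASH rat (1.36% of all genes) and 5 of 6 above every control. The reads behind this were 59 in all controls, 57 in all NASH and 4572 in all NASH-CH livers, of which NASH-CH 5 held 3716. Expected counts of Cyp2c24 were not whole in 5 of 18 rats, NASH-CH 5 among them, as when reads are shared with another row. Its NASH-CH levels alone were enough to bring the gene into the test, so a difference in this direction can be part of how it came to be tested. The log2 fold change of NASH-CH was 4.02 against control (SE 1.58, adjusted p = 0.0878) and 3.92 against NASH (SE 1.45, adjusted p = 0.152), not past the threshold. It was smaller and past it without NASH-CH 5, 3.24 (adjusted p = 0.00885) and 3.14 (adjusted p = 0.0171). With replicate numbers as a block it was 3.76 (adjusted p = 0.0149) and 3.96 (adjusted p = 0.0179), and edgeR gave 4.65 (adjusted p = 0.0024) and 4.87 (adjusted p = 0.00441).

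Cyp2c22, known to oxidise retinoic acid, showed its lowest group values in NASH. Controls were at 1063, 760, 1110, 1030, 1396 and 336 CPM, NASH rats at 485, 750, 387, 982, 681 and 580, and NASH-CH rats at 858, 979, 1274, 935, 1048 and 623. In NASH 5 of 6 rats were below 5 of the controls, but control 6 was lower than any of them. The log2 difference of NASH was -0.51 (95% interval -1.11 to 0.08, adjusted p = 0.307), and without control 6 it was -0.78 and past the threshold (adjusted p = 0.04). NASH-CH differed from control by 0.08 (-0.54 to 0.71, adjusted p = 0.873).

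Cyp2c23, an arachidonic acid epoxygenase best known from the kidney, did not pass the limma-voom test. It lay at 556 to 893 CPM in controls (median 728), 624 to 935 in NASH (median 757) and 614 to 983 in NASH-CH (median 867). The log2 differences from control were 0.10 (95% interval -0.23 to 0.43, adjusted p = 0.750) and 0.20 (-0.14 to 0.54, adjusted p = 0.418). Scaling by library size alone, which moved the median of all genes to 0.27, gave 0.46 for NASH-CH and called it (adjusted p = 0.0194).

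Cyp2c7, a growth hormone-dependent form described as abundant in rat liver, had next to no reads under its symbol. It was at 0 in 11 of 18 rats (4 control, 2 NASH and 5 NASH-CH) and reached 4 counts at most. A count of 0 allows up to 3 counts, which was 0.039 to 0.187 CPM depending on the library. Another row, LOC100361547 (ENSRNOG00000021405), which RefSeq now names Cyp2c7l1, held 15148 to 89446 expected counts, not whole in any of the 18 rats. It was found after the values were seen. Its levels were 878 to 2069 CPM in controls, 584 to 1074 in NASH and 725 to 1668 in NASH-CH, with log2 differences from control of -0.54 (SE 0.22, adjusted p = 0.166) and -0.11 (SE 0.23, adjusted p = 0.769).

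Summed over the 8 rows named Cyp2c, the reads came to 6410 ± 1028 CPM in controls, 7314 ± 1995 in NASH and 10350 ± 1192 in NASH-CH. The NASH-CH increase, 0.69 as a log2 ratio of means, was carried by Cyp2c6v1, which is not among the 9 genes. The 6 Cyp2c members alone summed to 5256 ± 1005, 4774 ± 665 and 5287 ± 1294 CPM, a log2 ratio of 0.01 for NASH-CH and -0.14 for NASH. Cyp2c6v1, a constitutive form that phenobarbital is known to raise, stood at 933 to 1325 CPM in controls and 4616 to 5865 in NASH-CH, or 2.14 higher on the log2 scale (SE 0.29, adjusted p = 5.47e-05). In NASH it ran from 1175 to 5554 CPM, with NASH 2 at 5554 and NASH 3 at 3482 and the other 4 at 1175 to 2040 (0.93, SE 0.27, adjusted p = 0.0633, and adjusted p = 0.0329 by edgeR). NASH 2 and NASH 3 were also the highest NASH rats for Cyp3a2 and for Cyp3a23/3a1.

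**Figure D4:**
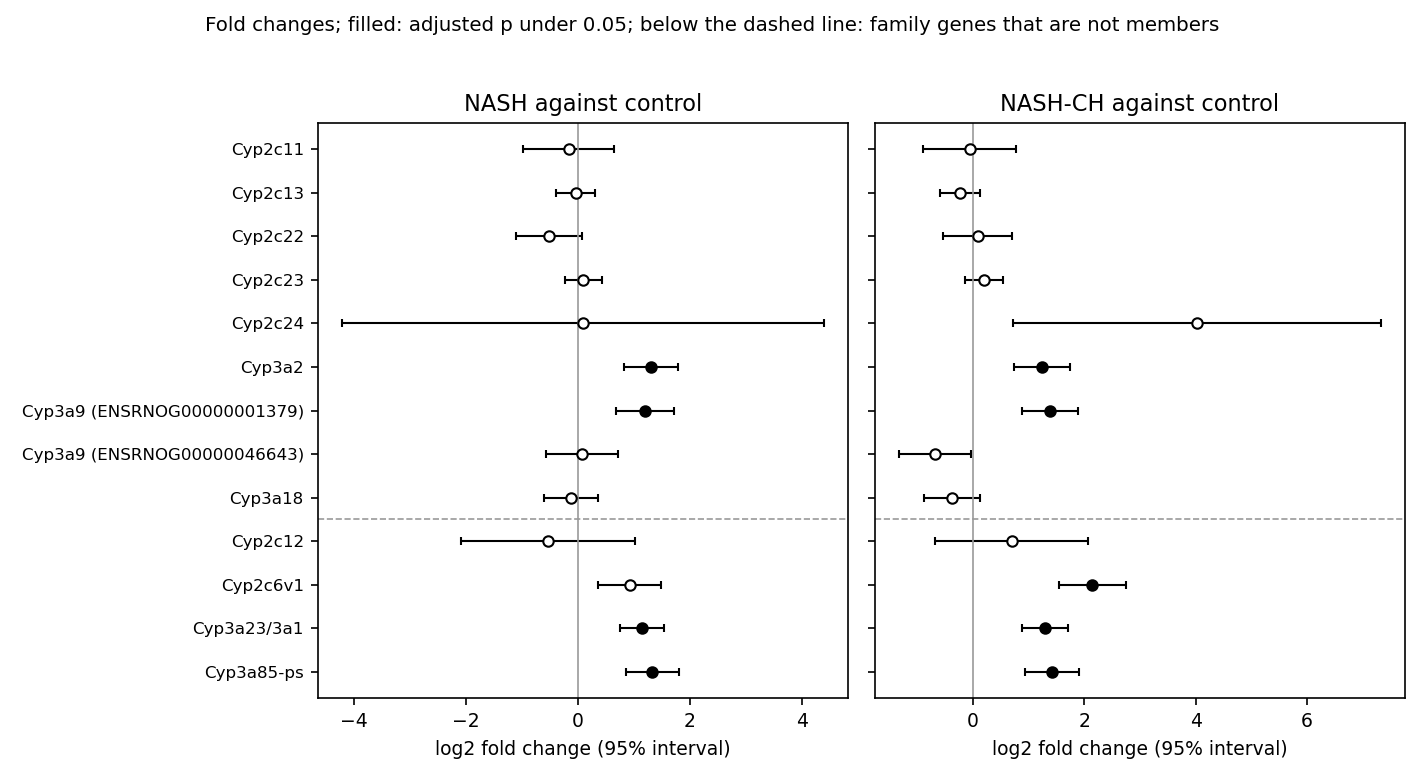
Log2 fold change with its 95% interval for each tested member row, and below the dashed line for the other 4 genes of the subfamilies, in NASH (left) and NASH-CH (right) against control, with filled points for an adjusted p under 0.05. The filled members are Cyp3a2 (1.31 and 1.24) and the Cyp3a9 row ENSRNOG00000001379 (1.20 and 1.39), while the Cyp2c members lie around 0 apart from Cyp2c24, whose intervals are wide.

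The genes around the 9 cytochromes were read from lists. Of 9 redox partners and haem genes, limma-voom called 1 lower in NASH and 2 lower in NASH-CH, and 0 higher in either. DESeq2 called 3 of them in NASH and 4 in NASH-CH. Por itself was at 109 to 263 CPM in controls, 159 to 474 in NASH and 154 to 378 in NASH-CH (NASH-CH 0.77, SE 0.27, adjusted p = 0.0608). It was called higher in NASH-CH by DESeq2 (0.72, adjusted p = 0.0384), with sample weights (0.91, adjusted p = 0.0257) and without NASH-CH 5 (0.92, adjusted p = 0.0274). Pgrmc2, a haem-binding protein, fell by 0.47 (adjusted p = 0.0305) and by 0.45 (adjusted p = 0.0126) on the log2 scale, and Pgrmc1, its relative that binds several P450s, fell by 0.39 in NASH-CH (adjusted p = 0.0292). Scaled by library size alone, these values were -0.24 (adjusted p = 0.145), -0.19 (adjusted p = 0.167) and -0.13 (adjusted p = 0.306), and the calls were lost.

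Of 24 tested nuclear receptors and liver factors, the NASH group had 2 higher and the NASH-CH group 4 higher and 2 lower. The pregnane X receptor Nr1i2 was at 61.1 to 79.1 CPM in controls, 64.4 to 105 in NASH and 37.2 to 104 in NASH-CH, with NASH-CH 5 the lowest, and did not pass the test (adjusted p = 0.669 and 0.958). The constitutive androstane receptor Nr1i3 was at 6.08 to 18.4 CPM in controls, 12.8 to 25.2 in NASH and 4.37 to 11.0 in NASH-CH. It fell by 0.88 on the log2 scale in NASH-CH against control (adjusted p = 0.0289) and by 1.51 against NASH (adjusted p = 0.000901), and the call against control was lost in 5 of the 18 fits without 1 rat and with library size alone (-0.63, adjusted p = 0.1001). Ncoa1, a receptor coactivator, rose by 0.57 (adjusted p = 0.0201) and 0.56 (adjusted p = 0.00476). Ppara, the fatty acid receptor, rose by 0.91 (adjusted p = 0.0309) and 0.88 (adjusted p = 0.0132), and Cebpb was lower in NASH-CH (-0.89, adjusted p = 0.00575). Hnf4a was at 361 to 418, 326 to 383 and 281 to 517 CPM and was not called.

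Of 12 growth hormone signalling genes, limma-voom called 0 in NASH (4 at an unadjusted p under 0.05, 0 by edgeR and 1 by DESeq2) and 1 in NASH-CH, Igf1, which fell by 0.39 (adjusted p = 0.0365). The Igf1 call was lost with library size alone (-0.13, adjusted p = 0.390) and with the 2 groups alone (-0.38, adjusted p = 0.0795). Stat5b was at 26.5 to 49.2 CPM in controls, 23.7 to 39.1 in NASH and 22.9 to 42.2 in NASH-CH and was not called (adjusted p = 0.306 and 0.204). Among 7 rows of other male-predominant liver genes, 0 were called in NASH by limma-voom, edgeR and DESeq2 alike (1 at an unadjusted p under 0.05), and 2 were lower in NASH-CH. These were the urinary protein genes Mup4 (row ENSRNOG00000033130, -3.01, adjusted p = 0.0104) and Mup5 (-2.61, adjusted p = 0.033), the latter at only 0.606 to 1.196 CPM in controls and 0 to 0.566 in NASH-CH. Mup genes are near-identical copies, and a further Mup4 row was not called (adjusted p = 0.0628). The 5 tested female-predominant genes include Cyp2c12, reported above. Limma-voom, edgeR and DESeq2 called 0 of them in either comparison with control. Unadjusted limma-voom p-values were under 0.05 for 3 genes in NASH and 1 in NASH-CH. The log2 difference was positive for 1 of the 5 in NASH (median -1.10) and for 3 in NASH-CH (median 0.22). In NASH-CH 5 the male-predominant rows summed to 458 CPM, the lowest of its group (to 2827). The female-predominant genes, Cyp2c12 included, summed to 618 CPM there, also the lowest of its group (to 995).

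Among 15 tested genes of arachidonate oxygenation and epoxide hydrolysis, the pathway of Cyp2c23, limma-voom called 0 in NASH (3 at an unadjusted p under 0.05, 0 by edgeR and 2 by DESeq2) and 5 in NASH-CH, of which 3 rose and 2 fell. Ephx1, the microsomal epoxide hydrolase, rose by 1.31 (adjusted p = 0.00263), Cyp4f5 rose by 1.77 (adjusted p = 0.00564), and Cyp4f6 fell by 0.67 (adjusted p = 0.0114). Of 16 tested cytochromes of families 1 and 2 outside Cyp2c, 1 rose and 1 fell in NASH, Cyp2e1 (1.32, adjusted p = 0.0121), the ethanol-inducible form, and Cyp2f4 (-0.78, adjusted p = 0.0276). In NASH-CH 2 rose, Cyp2e1 and Cyp2b2, and 5 fell, among them Cyp2f4 (-1.14, adjusted p = 0.000294).

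Markers of position and cell type moved beside these values, and their part in the results was not tested. Of 10 pericentral hepatocyte genes, the zone where Cyp2c and Cyp3a forms are mostly made, 2 rose and 1 fell in NASH and 1 rose and 2 fell in NASH-CH. Of 11 periportal genes limma-voom called 0 in NASH (3 at an unadjusted p under 0.05, 0 by edgeR and 1 by DESeq2), and 1 rose in NASH-CH. Hepatocyte markers counted 1 of 12 lower in NASH, and 1 higher and 3 lower in NASH-CH. Albumin was among those lower in NASH-CH. That call was lost without control 1, control 4, control 5 or NASH-CH 6, and with the 2 groups alone (-0.61, adjusted p = 0.0607). In NASH albumin was called lower by DESeq2 (-0.50, adjusted p = 0.0394) and not by limma-voom. Of 13 acute phase and cytokine genes, 1 rose in NASH and 4 in NASH-CH. Stellate cell and myofibroblast markers (8 tested) had 1 lower in NASH, and 3 higher and 1 lower in NASH-CH. Macrophage markers (7) had 1 lower in NASH and 5 lower in NASH-CH. Endothelial markers (7) had 0 past the limma-voom threshold in NASH (3 at an unadjusted p under 0.05, 0 by edgeR and 1 by DESeq2) and 1 higher in NASH-CH. Lymphocyte markers (5) had 0 by each of the 3 tools and at an unadjusted p under 0.05 in both comparisons. Cholangiocyte markers (4) had 0 in NASH by any of these, and in NASH-CH limma-voom called 0, edgeR 2 and DESeq2 1, and 1 had an unadjusted p under 0.05. In NASH-CH 5 the cholangiocyte markers summed to 51.5 CPM. The other NASH-CH rats had 6.53 to 17.5 CPM, and all control and NASH rats 6.595 to 12.2. The albumin of NASH-CH 5, at 41370 CPM, was the lowest of all rats, and its hepatocyte markers came to 98360 CPM.

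The gene most like a member over the 18 rats, by the correlation of deviations from group means, was Stac3 for Cyp2c11 (r = 0.951, and 0.822 without NASH-CH 5), Mgst1 for Cyp2c13 (0.927), Manf for Cyp2c22 (0.856), Cyp2a1 for Cyp2c23 (0.905) and Car2 for Cyp2c24 (0.901, and 0.805 without NASH-CH 5). For the Cyp3a members it was Cyp3a85-ps for Cyp3a2, Atp6v0b for Cyp3a18 (0.90) and LOC100911548 for the Cyp3a9 row ENSRNOG00000046643 (0.795). These are descriptions over rats that share library preparation and scaling, each the highest of 12904 genes.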

How the data were processed

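Whole liver RNA of 18 male Wistar rats was sequenced, 1 library per rat. Per the study's methods the authors trimmed adapters, aligned reads to Rnor_6.0 with STAR in 2-pass mode and quantified genes with RSEM on Ensembl annotation, and the labels also name Trim Galore, FastQC and limma without versions. The labels and the methods name different RNA extraction kits. The authors deposited 1 table for each rat, holding expected counts as RSEM gives them, without scaling to depth or gene length. RSEM shares reads that match several genes, so values of near copies are estimates.

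Expected counts were rounded, normalized by TMM (edgeR 4.0.16) and tested with limma-voom (limma 3.58.1, R 4.3.3), in a single fit of 18 rats with a mean per group. The filterByExpr function left 12904 genes, and p-values were adjusted by the Benjamini-Hochberg method over all of them at 0.05, two-sided. Correlations used log2 CPM with a prior count of 2. An expected count was called whole within 0.005. Means of the summed CPM were not tested. The alternatives were the quasi-likelihood test of edgeR, the Wald test of DESeq2 1.42.0, other scalings and filters, the compared groups alone, sample quality weights, a replicate block, leaving out each rat, and a threshold of 0.01. The limma-voom, edgeR and DESeq2 fits were tested on simulated data. With 6 rats a group and 1 library each, p-values measure the spread between rats, and counting intervals and floors cover counting error only. No 2 libraries of a group agreed within sampling noise.

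The members and lists were chosen with earlier results of these data known. The text names all 9 members, the other Cyp2c and Cyp3a symbols, up to 3 genes with the smallest p among those past the threshold in each list and comparison with control, Por, Nr1i2, Nr1i3, Stat5b, Hnf4a, Cyp2c12 and Alb, and the gene most like each member, except that the gene for the Cyp3a9 row ENSRNOG00000001379 is not reported here.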

Additional observations from a re-analysis of the deposited data

Results flagged for a closer look

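Of 48 groups of 6 rats in which the extreme rat was compared with the rest, 8 held a rat far from the others. Chance gives about 1 in 20 for normally spread values, which these CPM were not shown to be. By the same rule over all tested genes, NASH-CH 5 was the far rat in 7.05%, NASH-CH 6 in 3.57% and each other rat in 0.372% to 1.76%. The 48 groups include sums and rows that share reads, so they are not independent. NASH-CH 5 accounted for 4 of the 8, with Cyp3a2 at 764.2 CPM, the summed Cyp2c rows at 8155 CPM, Cyp2c12 at 106.5 CPM and Cyp2c24 at 48.26 CPM. The nearest rat of its group stood at 1524 CPM for Cyp3a2, 10220 for the Cyp2c sum, 14.41 for Cyp2c12 and 7.546 for Cyp2c24. Cyp2c11 was at 797.2 CPM in control 6, where the next control had 1716. Cyp2c24 was also far from its group in control 2 (1.504 CPM) and in NASH 5 (0.03424 CPM), both levels near the limit of detection. Cyp2c7 was at 0.08735 CPM in NASH-CH 4, with 0 in the other NASH-CH rats. The increase of Cyp2c6v1 over control was larger in NASH-CH than in NASH by 1.21 on the log2 scale (limma-voom, adjusted p = 0.0244), and this was lost in 4 of the 18 fits without 1 rat, those without NASH 4, NASH 5, NASH 6 or NASH-CH 2 (1.04 to 1.49 over the 18), by edgeR (0.99, adjusted p = 0.0572) and in the fit of the 2 groups alone (1.20, adjusted p = 0.0903).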

How the results depend on the processing

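Cyp3a2 and the Cyp3a9 row ENSRNOG00000001379 kept direction and call against control under every test, scaling, filter and omitted rat, except that at a threshold of 0.01 NASH kept 1 member. Leaving out 1 rat gave 2 to 3 called members in NASH, 2 to 3 in NASH-CH and 0 to 1 in NASH-CH against NASH. NASH-CH held 4 called members by DESeq2 and 4 under library size scaling, and NASH-CH against NASH 1 by edgeR, 2 by DESeq2, 1 without a filter, 1 with sample weights and 1 with the replicate block. Between the diseased groups the row called by edgeR, with weights and with the block was Cyp2c24, whose NASH-CH levels alone brought it into the test. Over all genes NASH gave 403 calls, 652 by edgeR, 1228 by DESeq2, 864 by library size, 268 without a filter, 662 with 2 groups alone, 1508 with weights, 39 at 0.01 and 132 to 993 without 1 rat. NASH-CH gave 2192, and 5565, 1419 and 849 without a filter, with 2 groups alone and at 0.01 (1513 to 2397 without 1 rat). NASH-CH against NASH gave 539, and 948 by DESeq2, 2698 without a filter, 351 with 2 groups alone, 239 at 0.01 and 340 to 587 without 1 rat. Library size alone moved the median of all genes to 0.23 and 0.27 and the share of calls that were higher from 50.6% to 90.7% in NASH, from 49.4% to 85.0% in NASH-CH and from 43.2% to 32.4% between them.

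Directions turned for small differences only. With library size alone Cyp3a18 (0.11), Cyp2c13 (0.19), Cyp2c11 (0.074) and Hnf4a (0.10) in NASH and Cyp2c13 (0.032), Cyp2c11 (0.18), Nr1i2 (0.22) and Hnf4a (0.25) in NASH-CH were above 0. In NASH-CH Cyp2c11 was at 0.13 by edgeR, 0.12 by DESeq2 and 0.25 with weights, Nr1i2 at 0.036, 0.031 and 0.17, and Hnf4a at 0.008, 0.002 and 0.084, and at 0.002 with at least 10 counts in every rat. Cyp2c24 in NASH was at -0.22 by edgeR, -0.15 by DESeq2, -0.048 with weights and -0.20 with the replicate block. With weights Cyp3a18 (0.035) and Cyp3a2 (0.091) turned between NASH-CH and NASH. Without 1 rat, NASH values ran from -0.13 to 0.66 for Cyp2c24, -0.16 to 0.29 for the Cyp3a9 row ENSRNOG00000046643 and -0.11 to 0.074 for Cyp2c13. NASH-CH values ran from -0.18 to 0.21 for Cyp2c22, -0.26 to 0.39 for Cyp2c11, -0.14 to 0.14 for Nr1i2 and -0.092 to 0.08 for Hnf4a, and between the diseased groups from -0.17 to 0.10 for Cyp3a2, -0.071 to 0.54 for Cyp2c11, and -0.002 to 0.27 for Cyp3a85-ps. Over the members alone the summed log2 ratio was -0.14 (NASH), 0.009 (NASH-CH) and 0.15 (between them) for Cyp2c and -0.082 for Cyp3a between the diseased groups. Over all rows, the Cyp2c ratio of NASH-CH was 0.96 by library size, and the Cyp3a ratio between the diseased groups, 0.023, ran from -0.041 to 0.123 without 1 rat. With the LOC rows, an alternative chosen after seeing the data, the Cyp2c ratios were 0.09, 0.58 and 0.50. The causes were not tested. Of the genes named from the lists, calls were lost without 1 rat in 9 of 18 fits for Ppara, 8 for Pgrmc2, 8 for Cyp2f4 and 2 for Ncoa1 in NASH, and in 7 for Igf1, 5 for Nr1i3, 3 for Pgrmc1 and 2 for Mup5 in NASH-CH. Ppara in NASH lost its call without a filter (0.92, adjusted p = 0.0508), as did Pgrmc2 (-0.46, adjusted p = 0.0514). With the 2 groups alone Pgrmc1 (-0.38), Nr1i3 (-0.87) and Mup5 (-2.57) in NASH-CH lost theirs, and Mup5 also with weights (-1.66).

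Replicate numbers did not pair the rats: mean correlations of same-numbered rats were 0.05, 0.07 and 0.02, and in each comparison 2 of 6 rats were most like their own number. With the replicate block Cyp2c24 was called in NASH-CH (3.76 against control, 3.96 against NASH), Por was called (0.75), and Pgrmc1 (-0.39) and Mup5 (-1.95) were not, and no other call of a named gene changed. Few counts limit Cyp2c24 and Cyp2c7, and shared reads limit Cyp3a2, Cyp3a18 and, in 5 of 18 rats, Cyp2c24. Expected counts were also not whole in 11 of 18 rats for Cyp2c13 and in 1 for each Cyp3a9 row.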

Other observations

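Cyp2b2, a cytochrome best known for its induction by phenobarbital, was chosen after its values were seen. It stood at 6.56 to 47.2 CPM in controls, at 98.5, 1105, 200.9, 14.7, 5.99 and 6.10 in NASH and at 555.5 to 1058 in NASH-CH. NASH 2 and NASH 3, the NASH rats highest for Cyp3a2, Cyp3a23/3a1 and Cyp2c6v1, were also the highest for Cyp2b2. In NASH 4, NASH 5 and NASH 6 Cyp2b2 lay within or below the control range. Their Cyp3a2 (1538, 1503 and 1287 CPM) and Cyp3a23/3a1 (1987, 1921 and 1654 CPM) were above every control. The part of phenobarbital in these levels was not tested. Its log2 fold change was 4.96 in NASH-CH (SE 1.20, adjusted p = 0.00946) and 0.84 in NASH (SE 0.97, adjusted p = 0.661) by limma-voom.

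The row LOC100361492, which RefSeq names Cyp2c55 and which was likewise found after the values were seen, had 0 to 4 counts in controls, 2 to 17 in NASH and 8 to 1240 in NASH-CH. Its highest liver was NASH-CH 5 at 16.1 CPM, where Cyp2c24 and Cyp2c12 were also highest, and the next was NASH-CH 6 at 1.88 CPM. Its expected counts and those of Cyp2c24 were not whole in the same 5 of 18 rats, NASH-CH 5 among them (1239.97 and 3716.03). Reads that match both rows may be shared out between them, so their levels in that liver are not separate observations.

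In NASH-CH 5 the male-predominant gene Hsd3b5 was at 119.9 CPM, the lowest of all rats, while the other NASH-CH rats had 291.5 to 532.1. A1bg and Cux2, which mark the female pattern, were at 0.195 and 0.545 CPM there, within the range of the controls (0.0505 to 1.88 and 0.165 to 4.59).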
